A study of Rattus norvegicus with 18 samples.

Results

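The peptidases of the renal brush border are enzymes anchored in the outer membrane of kidney epithelial cells, above all on the microvilli of the proximal tubule. All probe sets that the platform annotation gives a single gene symbol were searched for 8 genes: Anpep, Enpep, Mme, Mep1a, Mep1b, Dpp4, Ggt1 and Dpep1. All 8 genes were on the arrays, with 18 probe sets among 18178 with a single symbol from 10969 genes, and 17 of the 18 passed a filter on low signal and were tested. The study measured transcript levels in kidneys of congenic rats (3 samples) and Dahl salt-sensitive (S) rats (3 samples). The name of the congenic strain in the labels ends in x3A. By that name, the congenic rats have the Dahl S genome except for a part of chromosome 9 that comes from a salt-resistant (R) strain. Per the series title, that part holds a blood pressure locus. The borders of that part, and the age, sex and diet of the rats, were not stated in the labels. No label says outright that the samples are separate animals, so p-values reflect only how far these samples spread.

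These enzymes cut peptides that the glomerulus filters into short fragments and amino acids, which the proximal tubule then takes up. Several of them also act on peptides that regulate blood pressure: the aminopeptidases encoded by Enpep and Anpep trim angiotensin II and its products in turn, and neprilysin, encoded by Mme, degrades natriuretic peptides, bradykinin and angiotensins. The products of Ggt1 and Dpep1 act one after the other on glutathione. In whole kidney RNA, fewer proximal tubule cells and less RNA per cell cannot be told apart.

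Of the 8 genes, Mep1a lies on chromosome 9, the chromosome that carries the R segment. Anpep lies on chromosome 1, Mme and Enpep on 2, Dpp4 on 3, Mep1b on 18, Dpep1 on 19 and Ggt1 on 20, by gene ID in the RefSeq table of the GRCr8 assembly. RefSeq promoters of the GRCr8 build matched all 8 genes. The 250 bases before the annotated start were searched on both strands for TATAA and GGGCGG, the core letters of the TATA box and the GC box. TATAA was found before Anpep and Mep1a (2 of 8 genes), against 24% of 33469 promoters, and GGGCGG before Mme (1 of 8 genes), against 30.5%. None of the matches overlap, and a match describes the letters only. The last 120 bases before the start are shown 5′ to 3′ on the gene's strand for Anpep and Dpp4, the genes whose signals varied most alike, and for the meprin genes, 1 of which is the chromosome 9 member. Capitals mark TATAA. The Mep1a match lies further upstream, 216 bases before the start, and Dpp4 and Mep1b have none.
Anpep, chr1:143195102-143195221, minus strand: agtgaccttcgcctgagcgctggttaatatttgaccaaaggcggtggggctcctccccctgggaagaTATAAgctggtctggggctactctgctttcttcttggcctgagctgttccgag
Dpp4, chr3:67452423-67452542, minus strand: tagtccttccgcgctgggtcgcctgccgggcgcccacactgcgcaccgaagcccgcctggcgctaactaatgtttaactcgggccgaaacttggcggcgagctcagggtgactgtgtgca
Mep1a, chr9:24971781-24971900, plus strand: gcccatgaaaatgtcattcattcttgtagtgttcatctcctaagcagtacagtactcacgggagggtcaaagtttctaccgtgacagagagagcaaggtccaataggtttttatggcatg
Mep1b, chr18:12640921-12641040, plus strand: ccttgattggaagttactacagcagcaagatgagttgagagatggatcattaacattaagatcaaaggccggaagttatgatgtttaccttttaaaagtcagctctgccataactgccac

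Kidney RNA was read on 3 array types (A, B and C), which gave 18 arrays and 26202 probe sets after controls were left out. Arrays of the same strain and number were taken as 1 sample over the 3 types, which the labels do not say outright. Values that join array types rest on this. Each value is 1 linear signal per probe set in arbitrary units. The strains were compared with limma on log2 signal over 15721 tested probe sets, and differences are congenic minus Dahl S. The samples numbered 1 had lower ratios of 3 prime to 5 prime signal of the control probe sets than the samples numbered 2 and 3, in both strains. For beta-actin the ratio was 1.41 in congenic sample 1 and 1.40 in Dahl S sample 1, against 2.09 to 2.55 in the other samples, and for GAPDH it was 1.08 in congenic sample 1 and 1.24 in Dahl S sample 1, against 1.45 to 1.61. The strains overlapped in both ratios (exact permutation test, two-sided, p = 0.7 for beta-actin and p = 0.5 for GAPDH, the smallest p possible with 3 samples a strain being 0.1).

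No peptidase gene passed the test for a strain difference. Of the 17 tested probe sets 0 had a limma adjusted p under 0.05, as over all tested probe sets (0%), and 0 had an unadjusted p under 0.05, against 2.49% of all. The 3 congenic values overlapped the 3 Dahl S values in each of the 17, while 7.08% of all tested probe sets had no overlap. With each gene represented by its brightest tested probe set, 7 of the 8 genes had a higher congenic mean and 1, Mep1a, a lower one. Over all genes 48.9% were higher. The congenic mean was higher by at least 0.2 log2 units in 5 of the 8, against 20.3% of all genes. This count depends on the cut, as Enpep at +0.21 and Anpep at +0.23 lay just above it. Enpep was at +0.17 with quantile normalization, and without Dahl S sample 2 Anpep was at +0.197 and Ggt1 at +0.03. The median log2 difference of the 8 genes was +0.22, against -0.01 over the 8168 genes tested. The 8 differences ran from -0.22 to +0.48 and all lay between the 5th and 95th percentiles of all genes, -0.61 and +0.50. The 95% confidence intervals reached a median of 0.50 log2 units to either side. This fit, which has no term for the sample number, could thus not resolve differences of this size with 3 samples a strain.

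**Figure D1:**
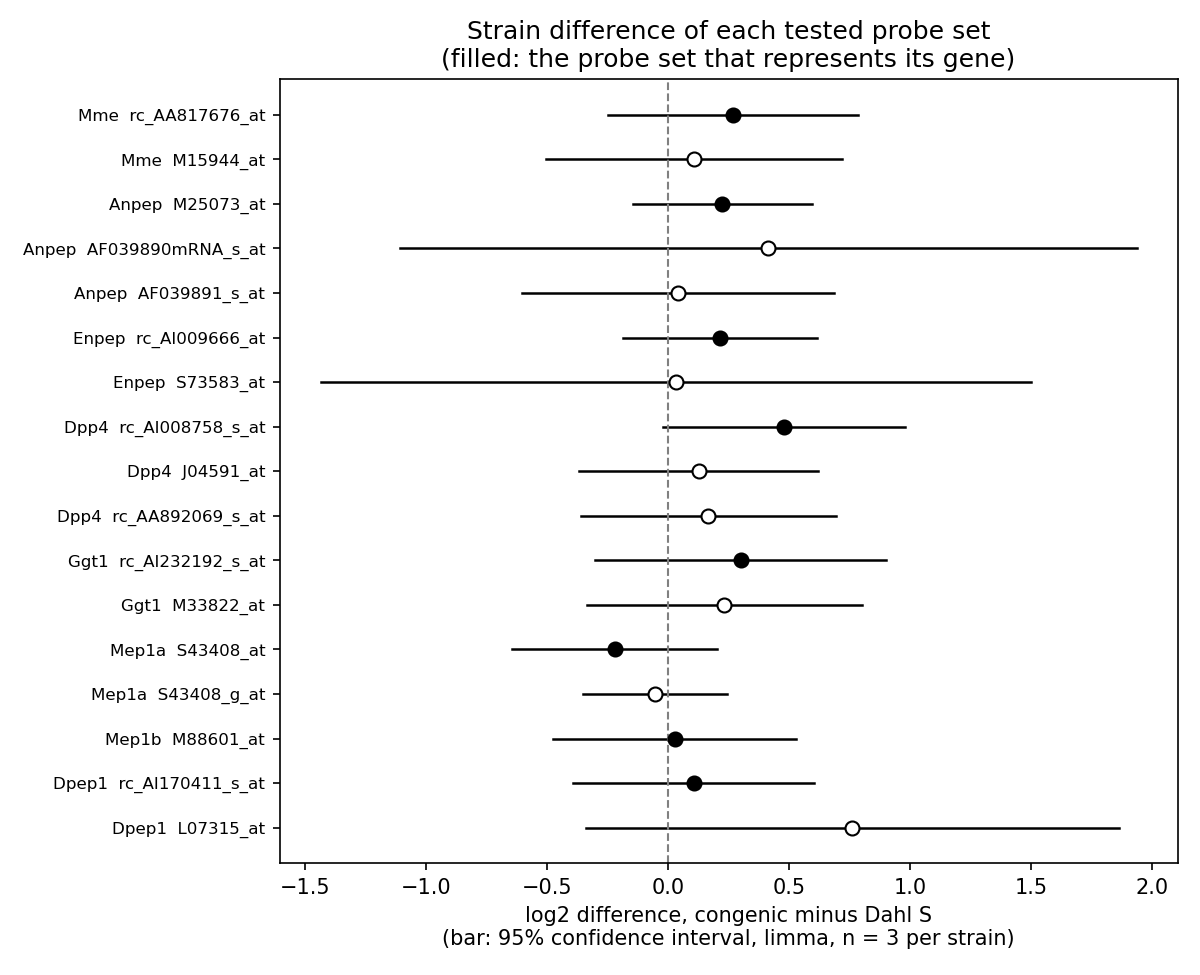
Log2 difference between congenic and Dahl S kidneys for each of the 17 tested probe sets of the 8 peptidase genes, with 95% confidence intervals (limma, n = 3 per strain). Filled circles mark the probe set that represents its gene; every interval includes 0, and 15 of the 17 estimates lie above it.

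Anpep encodes aminopeptidase N, which removes neutral residues from the amino end of peptides. Its brightest probe set, M25073_at, read 2395.5, 2221.6 and 1920.1 in congenic samples 1, 2 and 3, against 2220.0, 1783.9 and 1613.9 in Dahl S samples 1, 2 and 3. Within each strain sample 1 was the highest, and the strains overlapped because Dahl S sample 1 lay between congenic samples 2 and 3. The means were 2179 ± 241 and 1873 ± 313 (SD, n = 3 each) in congenic and Dahl S kidneys, and the log2 difference was +0.23 (SE 0.16, 95% interval -0.14 to +0.59, limma adjusted p = 0.9997). It was +0.35 without Dahl S sample 1 and +0.12 without Dahl S sample 3. The second, AF039890mRNA_s_at, ranged more widely, with 1866.4, 729.3 and 381.0 in congenic samples 1, 2 and 3, against 1418.1, 510.1 and 301.9 in Dahl S samples. Both samples numbered 1 stood well above the other 4, and the strain difference of +0.42 had an SE of 0.66 in a fit without sample number. Among samples of the same number, the congenic value was the higher each time. The third, AF039891_s_at, read 411.0, 326.9 and 200.7 in congenic and 334.9, 233.8 and 315.3 in Dahl S samples, a difference of +0.04 (SE 0.28). The samples numbered 1 were again the highest. In the maker's naming the ending _s_at marks probe sets whose probes can match more than 1 transcript.

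Enpep encodes aminopeptidase A, which removes acidic residues and turns angiotensin II into angiotensin III. Its brighter probe set, rc_AI009666_at on type B, read 544.8, 504.6 and 628.3 in congenic samples, against 462.2, 506.2 and 472.3 in Dahl S samples. Only Dahl S sample 2 reached into the congenic range, just above congenic sample 2. The difference was +0.21 (SE 0.18, 95% interval -0.18 to +0.61, limma adjusted p = 0.9997), or 1.16-fold. It was +0.13 without congenic sample 3 and +0.12 as the mean over both probe sets. The other probe set, S73583_at on type A, read 203.8, 49.2 and 49.0 in congenic and 156.5, 53.1 and 55.2 in Dahl S samples. Here the samples numbered 1 were 1.79 log2 units above the others on average, and the strain difference was +0.03 (SE 0.64). The probe sets of Enpep thus differed in which samples were high, with a Pearson r of -0.19 over the 6 samples.

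Mme encodes neprilysin, a zinc endopeptidase that is also found on podocytes. The type C probe set rc_AA817676_at read 865.8, 995.6 and 1139.3 in congenic samples, against 639.3, 755.8 and 1159.4 in Dahl S samples. Dahl S samples 1 and 2 lay below all congenic samples and Dahl S sample 3 above them. The difference was +0.27 (SE 0.23, 95% interval -0.25 to +0.78, limma adjusted p = 0.9997), and it was +0.52 without Dahl S sample 3 and +0.09 without Dahl S sample 1. On type A, M15944_at read 125.0, 100.8 and 115.8 in congenic and 143.8, 97.2 and 83.3 in Dahl S samples, a difference of +0.11 (SE 0.27). Another type A probe set, rc_AA894298_s_at, read 87.1, 8.7 and 5.3 in congenic and 113.0, 6.3 and 6.2 in Dahl S samples. It was not tested, because its mean log2 signal lay below that of the filter level of type A, a signal of 21.2, which only the samples numbered 1 exceeded. In Mme the samples numbered 1 were the highest on both type A probe sets and the lowest within each strain on type C.

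**Figure D2:**
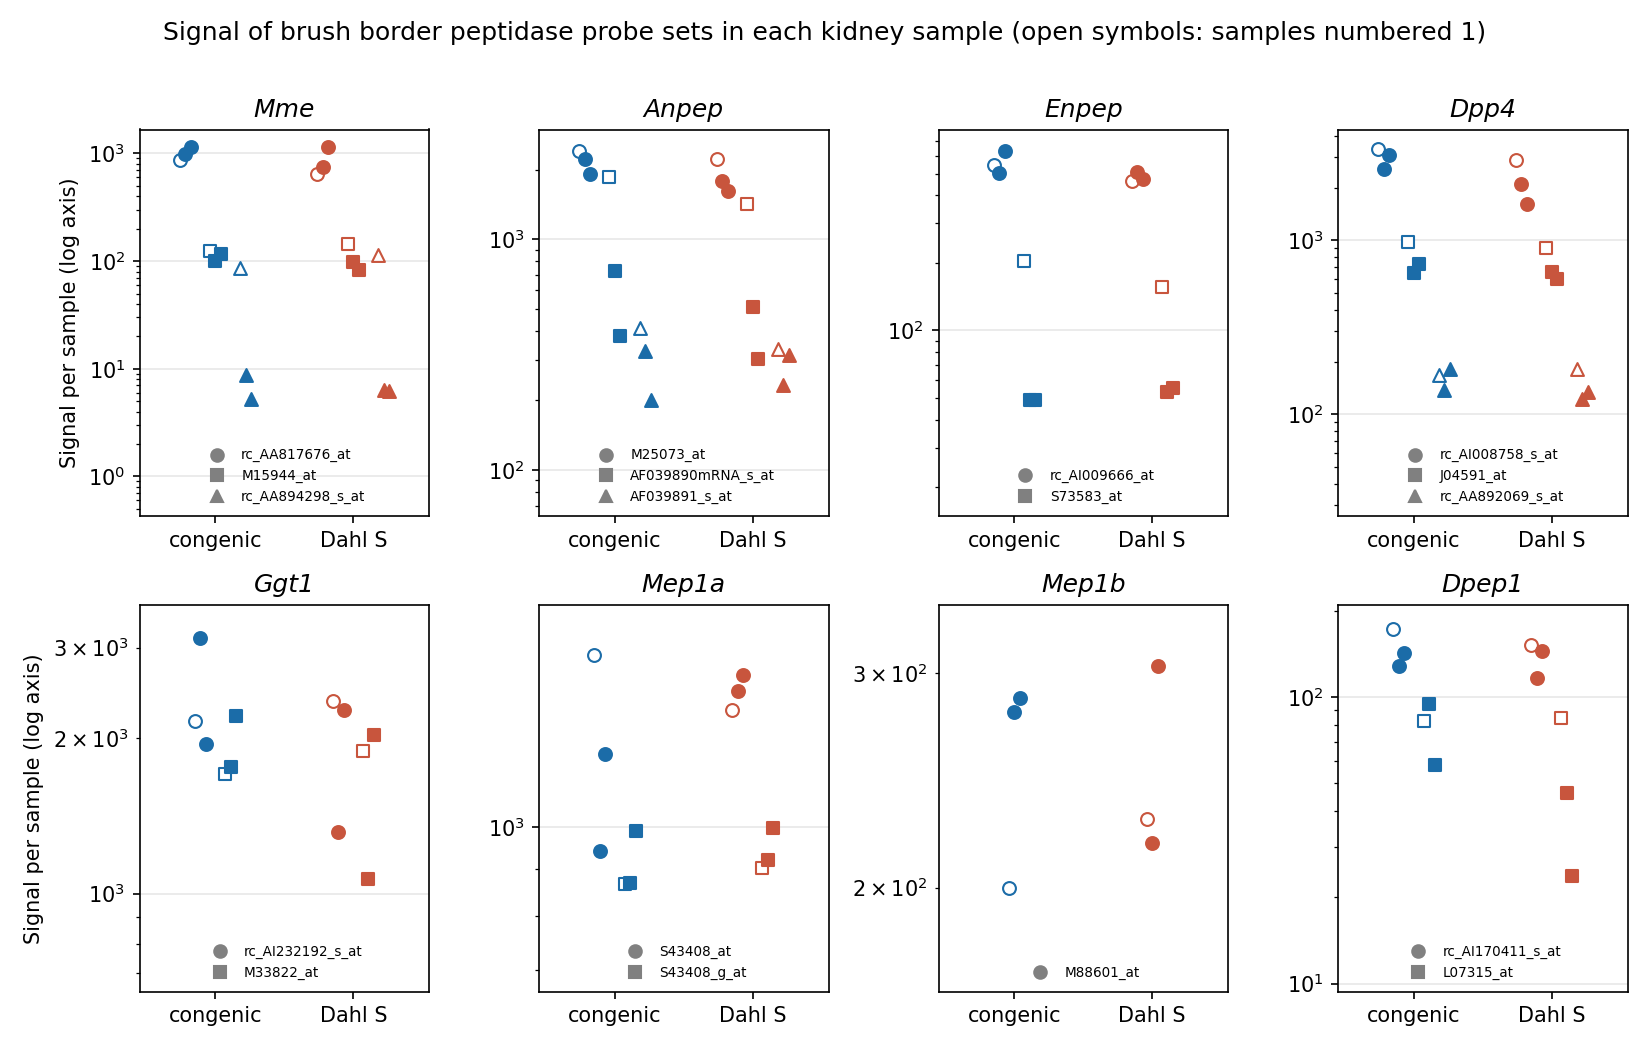
Signal of each of the 18 probe sets (log axis, arbitrary units) in the 3 congenic and 3 Dahl S samples, with 1 panel per gene, 1 symbol shape per probe set and open symbols for the samples numbered 1. The strains overlap in every panel, and the open symbols stand far above the others for 1 probe set each of Mme, Anpep and Enpep (rc_AA894298_s_at, AF039890mRNA_s_at and S73583_at).

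Mep1a and Mep1b encode the alpha and beta subunits of meprin, a zinc endopeptidase abundant in rodent kidney. For the chromosome 9 gene Mep1a, S43408_at read 1541.1, 943.4 and 1202.3 in congenic samples, against 1341.1, 1405.7 and 1463.2 in Dahl S samples. Congenic samples 2 and 3 were below all Dahl S samples and congenic sample 1 above them. The difference was -0.22 (SE 0.18, 95% interval -0.64 to +0.20, limma adjusted p = 0.9997). It was -0.40 without congenic sample 1, -0.43 without both samples numbered 1 and -0.04 without congenic sample 2. The other probe set, S43408_g_at, comes from the same sequence record and read 866.7, 868.8 and 990.3 in congenic and 902.8, 920.9 and 998.3 in Dahl S samples. Its values lay close together in both strains and differed by -0.05 (SE 0.13, 95% interval -0.35 to +0.25), an interval that as a fold runs between 0.785 and 1.19. The probe sets of Mep1a varied together only weakly over the 6 samples (r = 0.21).

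Mep1b had 1 probe set, M88601_at, with 199.8, 278.9 and 286.3 in congenic samples, against 227.7, 217.6 and 303.9 in Dahl S samples. The ranges of the strains overlapped over most of their width. The means were 255.0 ± 47.9 and 249.7 ± 47.2 (SD, n = 3 each) in congenic and Dahl S kidneys, and the difference was +0.03 (SE 0.22, 95% interval -0.47 to +0.53, limma adjusted p = 0.9997). The sign turned with 4 of the 6 samples left out in turn. Over the 6 samples the signals of the meprin subunit genes had an r of -0.49.

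Dpp4 encodes dipeptidyl peptidase 4, which removes pairs of residues from peptides such as incretins and neuropeptide Y. It had the largest estimate among the 8 represented genes. The type B probe set rc_AI008758_s_at read 3336.6, 2578.2 and 3072.0 in congenic samples, against 2882.7, 2099.6 and 1611.4 in Dahl S samples. Dahl S samples 2 and 3 were below all congenic samples, and Dahl S sample 1 lay above congenic sample 2. The means were 2996 ± 385 and 2198 ± 641 (SD, n = 3 each), a log2 difference of +0.48 (SE 0.22, 95% interval -0.02 to +0.98) or 1.39-fold, with an unadjusted limma p of 0.0586 and an adjusted p of 0.9997. It was +0.28 without Dahl S sample 3, +0.70 without Dahl S sample 1, +0.61 without both samples numbered 1, and +0.26 as the mean over the 3 probe sets. The unadjusted limma p of rc_AI008758_s_at was 0.0221 with sample number as a block and 0.0156 with a term for the samples numbered 1. Without the intensity trend of the fit it was 0.139. In none of these fits did the probe set pass the adjustment. On type A, J04591_at read 977.6, 647.4 and 731.8 in congenic and 908.8, 655.3 and 596.2 in Dahl S samples, a difference of +0.13 (SE 0.22). The third, rc_AA892069_s_at, read 167.4, 137.7 and 183.1 in congenic and 181.7, 121.9 and 134.5 in Dahl S samples, a difference of +0.17 (SE 0.23). The 3 probe sets of Dpp4 varied together, with r between 0.74 and 0.81.

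Ggt1 encodes gamma-glutamyltransferase 1, which starts the breakdown of glutathione outside the cell. On type C, rc_AI232192_s_at read 2157.7, 3127.5 and 1949.9 in congenic samples, against 2360.9, 1314.3 and 2268.6 in Dahl S samples. Dahl S sample 2 was far below the other 5 samples. On type A, M33822_at read 1705.3, 1757.3 and 2214.0 in congenic and 1889.0, 1066.6 and 2028.3 in Dahl S samples, and Dahl S sample 2 was again the lowest. The differences were +0.30 (SE 0.26, 95% interval -0.30 to +0.90, limma adjusted p = 0.9997) and +0.23 (SE 0.25). Without Dahl S sample 2 they were +0.03 and -0.059, so the higher congenic mean of Ggt1 rested on that sample in both probe sets. For the type C probe set the difference was +0.10 without congenic sample 2 and +0.52 without both samples numbered 1.

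Dpep1 encodes a membrane dipeptidase that splits cysteinylglycine, the product of the Ggt1 enzyme, and leukotriene D4. Its brighter probe set, rc_AI170411_s_at, read 173.0, 129.1 and 143.1 in congenic samples, against 151.8, 116.5 and 144.7 in Dahl S samples. The strains overlapped widely, and the difference was +0.11 (SE 0.22, 95% interval -0.39 to +0.60, limma adjusted p = 0.9997). It was -0.0091 without congenic sample 1 and as close to 0 without Dahl S sample 2. The other, L07315_at, read 82.6, 95 and 58.0 in congenic and 84.8, 46.4 and 23.7 in Dahl S samples, a difference of +0.76 (SE 0.48, 95% interval -0.34 to +1.86). Dahl S sample 3 was the lowest there, and without that sample the difference was +0.29, while it was +1.21 without Dahl S sample 1. As the mean over both probe sets, Dpep1 differed by +0.43.

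The 8 genes did not share 1 pattern over the samples. Relative to each gene's own mean over the 6 samples, the mean of the 8 genes was +0.11, +0.05 and +0.10 log2 units in congenic samples 1, 2 and 3, and -0.02, -0.22 and -0.02 in Dahl S samples 1, 2 and 3. Dahl S sample 2 stood lowest, with 1 of the 8 genes above its own mean, against 5 or 6 in each other sample. The summed signal of the 8 genes was 10341 to 11214 in congenic and 8200 to 10286 in Dahl S samples. These ranges did not overlap, by a narrow margin, although those of each single probe set did. The sum mixes signals of 3 array types and is carried by the brightest genes. Congenic means were 2996 for Dpp4, 2412 for Ggt1 and 2179 for Anpep, against 255 for Mep1b and 148 for Dpep1. It thus does not describe the 8 genes evenly, and is given without a test. Without Dahl S sample 2, 5 of the 8 genes had a higher congenic mean and the median difference was +0.11. Between genes, r over the 6 samples, which share their arrays and preparation, ran from -0.56 to 0.85 in the 28 pairs and was above 0 in 16. It was highest for Anpep and Dpp4 (0.85) and for Mme and Mep1b (0.78), and lowest for Ggt1 and Mep1a (-0.56). Over 8160 other genes, the 5 whose signal followed the mean of the 8 most closely were Palm, Inpp5a, Pip4p2, Trim37 and Matr3 (r of 0.97 to 0.99 over 6 samples), and 51 genes reached an r of 0.9. The 5 were picked as the highest of 8160 values, and with 6 samples high values also arise between unrelated genes. They are a description without a test.

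Sample number went with larger differences than strain in several probe sets. Both samples numbered 1 lay above the other 4 samples in 6 of the 17 tested probe sets: 2 of Anpep and 1 each of Mme, Enpep, Dpp4 and Dpep1. Over all tested probe sets this held for 15.2%, and the reverse, both below the other 4, for 14.2%, but for 0 of the 17. All 6 peptidase probe sets with the pattern were on type A, and none of those on types B and C showed it. The shares of 15.2% and 14.2% join the array types, and a share for type A alone was not computed. The distance of the samples numbered 1 from the others was 1.84 log2 units for AF039890mRNA_s_at of Anpep and 1.79 for S73583_at of Enpep. It was 3.93 for the untested rc_AA894298_s_at of Mme, also on type A. In the same samples the control probe sets had the lower 3 prime to 5 prime ratios given above; the part of RNA quality in these probe sets was not tested. Without both samples numbered 1 the median difference of the 8 genes was +0.19, with 7 of 8 higher.

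**Figure D3:**
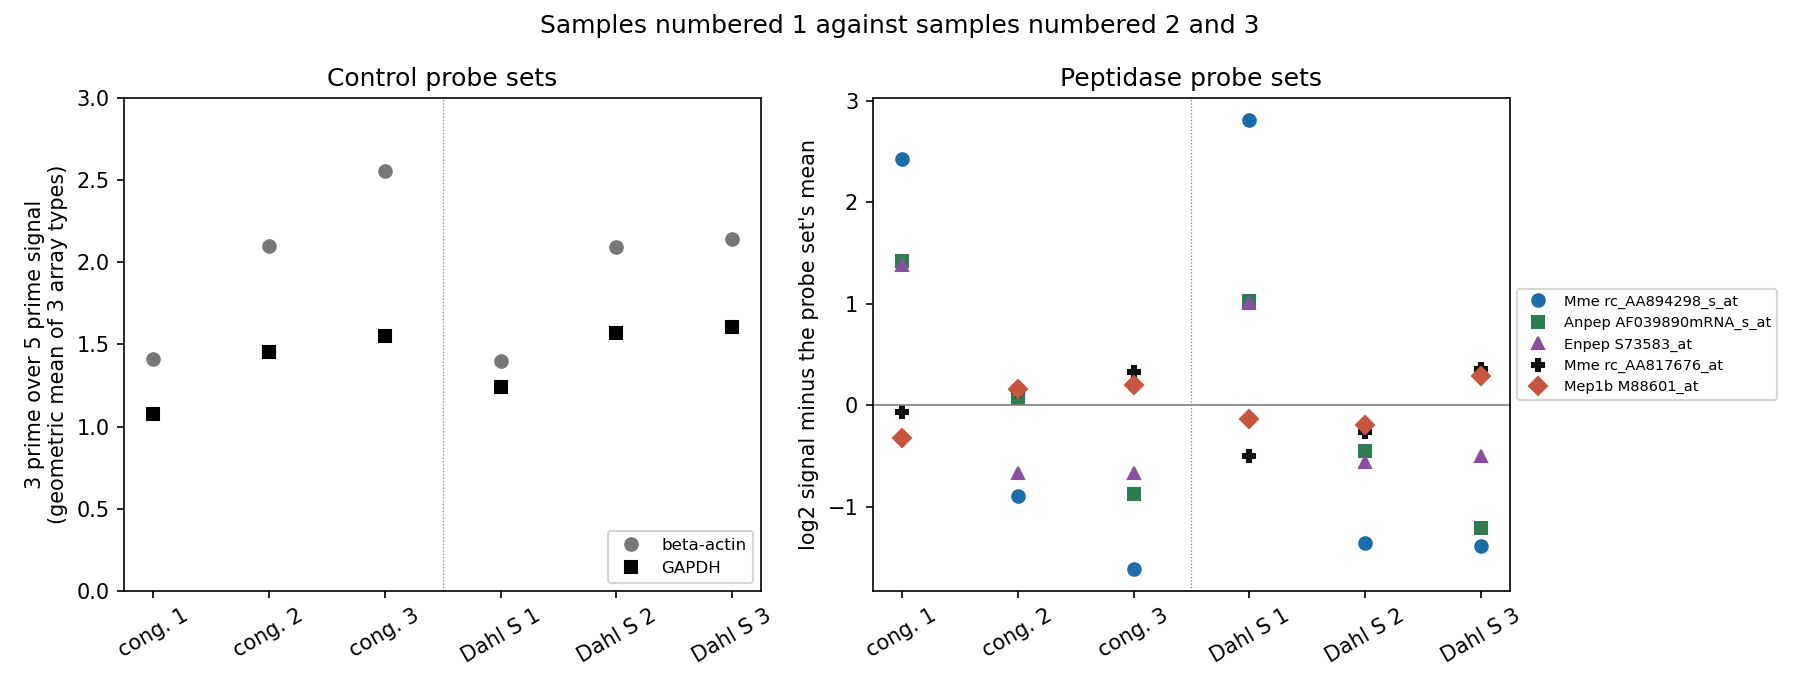
Left, ratio of 3 prime to 5 prime signal for beta-actin and GAPDH controls in each sample (geometric mean of the 3 array types); right, log2 signal of 5 peptidase probe sets minus the probe set's own mean in the same samples, congenic before Dahl S. The samples numbered 1 have the lowest control ratios in both strains and the highest signal of rc_AA894298_s_at, AF039890mRNA_s_at and S73583_at, while rc_AA817676_at of Mme and M88601_at of Mep1b do not follow that pattern.

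Other genes of peptide breakdown and uptake also held no member past the adjusted threshold in either direction in limma, and their medians lay closer to 0. Of the other cell-surface hydrolases 11 were tested, 6 higher and 5 lower (median +0.04). Dpep2, a relative of Dpep1, read 35.3, 22.8 and 44.6 in congenic samples, against 105.7, 66.8 and 77.4 in Dahl S samples, without overlap. The difference was -1.31 (SE 0.52), with a limma adjusted p of 0.9997 and an unadjusted p of 0.0305. It was below the filter level of type B, 39.3, in 2 congenic samples, so the size is uncertain. Ace, the angiotensin-converting enzyme, read 49.9, 78.2 and 71.2 in congenic and 49.1, 27.8 and 50.5 in Dahl S samples (+0.67, SE 0.37, and +0.39 without Dahl S sample 2).

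Of 19 intracellular peptidases 11 were higher and 8 lower (median +0.04), with the lysosomal Tpp1 at +0.34 (SE 0.22) and the aminoacylase Acy1 at +0.14 (SE 0.12). Of 9 genes of peptide and amino acid uptake 6 were higher and 3 lower (median +0.06), with the peptide transporter Slc15a2 at +0.24 (SE 0.18) and Slc3a1, a subunit of the cystine transporter, at +0.17 (SE 0.13). Tpp1 was at +0.15 without Dahl S sample 1 and at +0.53 without Dahl S sample 2. Slc15a2 was at +0.15 without Dahl S sample 2, and Slc3a1 at +0.11 without Dahl S sample 3 or with quantile normalization. The peptide transporter Slc15a1 was below the filter level and not tested. Of 13 microvillus and endocytosis genes 9 were higher and 4 lower (median +0.05). Among them were Cubn, the endocytic receptor cubilin, at +0.18 (SE 0.12), and Espn, an actin-bundling protein, at -0.21 (SE 0.19). Espn was at -0.066 without congenic sample 1 and at -0.38 without congenic sample 3. Of 6 transcription factors 4 were higher and 2 lower (median +0.10), with Gata4 at -0.71 (SE 0.48) and Ppara at +0.62 (SE 0.47). Both rested on single samples: Gata4 was at -0.16 without congenic sample 1 and at -1.14 without congenic sample 2, and Ppara at +0.27 without congenic sample 2 and at +1.05 without congenic sample 3.

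**Figure D4:**
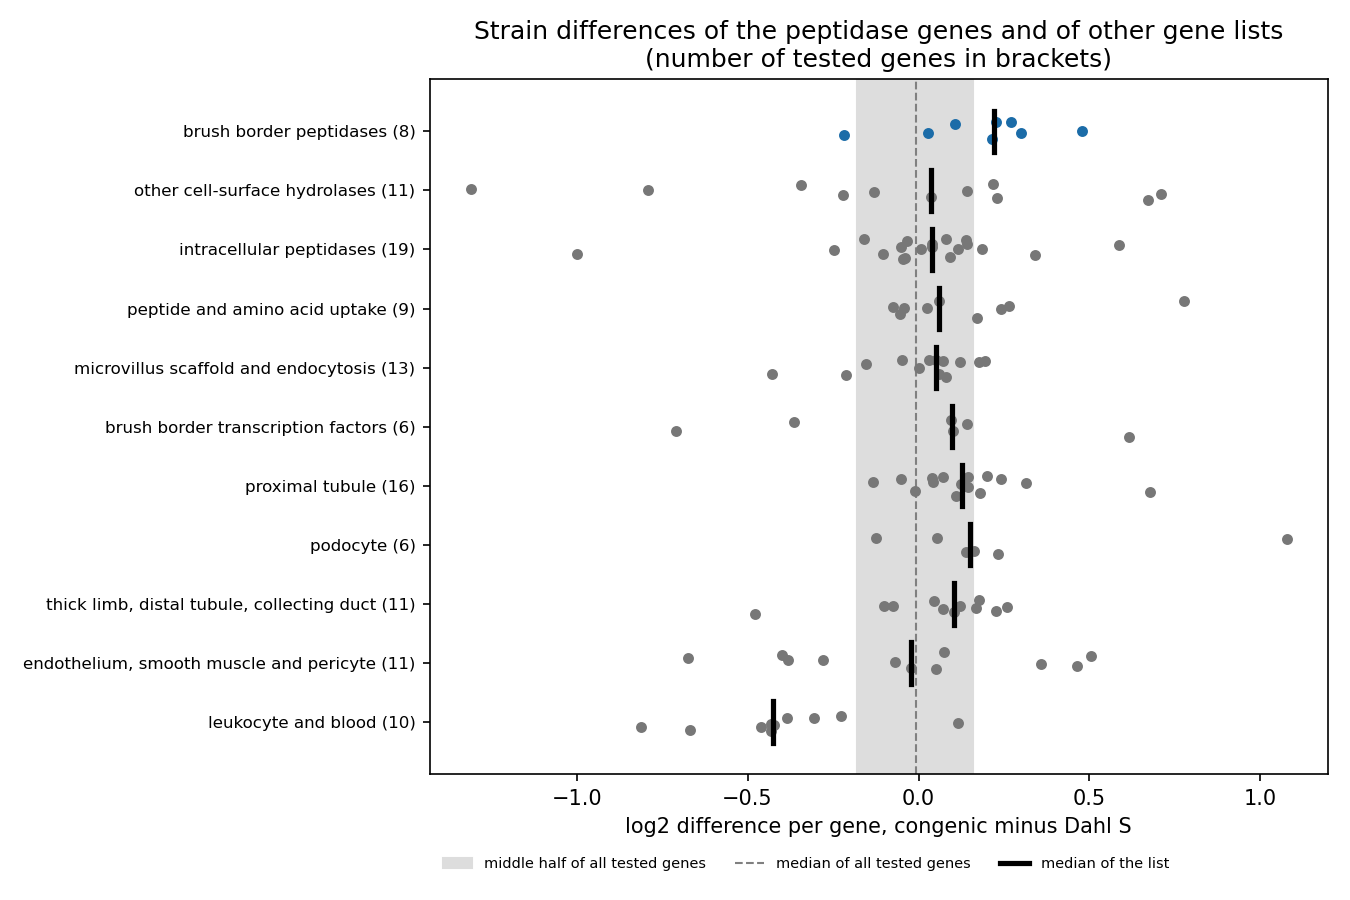
Log2 difference between congenic and Dahl S kidneys for each tested gene of the peptidases (blue) and of 10 other lists (grey), with list medians as black bars and the range between the lower and upper quartiles of all 8168 tested genes shaded. The peptidase median of +0.22 lies right of the shaded range, the leukocyte and blood median of -0.43 left of it, and the other 9 medians inside it.

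The tissue held the cells that carry the brush border: all 16 proximal tubule markers on the arrays passed the filter. Of the 16, 13 were higher and 3 lower in congenic kidneys (median +0.13), 0 passed the adjusted threshold, and their summed signal was 75678 to 90427 in congenic and 72084 to 76102 in Dahl S samples. Slc4a4, the basolateral bicarbonate cotransporter, had +0.68 (SE 0.17) and Pck1, a gluconeogenic enzyme, +0.31 (SE 0.16). Other kidney cells carry some of these peptidases too: podocytes Mme and Enpep, pericytes Anpep and Enpep, and leukocytes Mme, Anpep and Dpp4. Podocyte markers were higher in 5 of 6 (median +0.15, summed signal 2649 to 3130 in congenic and 2224 to 2888 in Dahl S samples), with Podxl at +1.08 (SE 0.54) and Ptpro at +0.16 (SE 0.25). Podxl was at +0.31 without Dahl S sample 3, where its signal was 55.6 against 266.1 and 277.1 in the other Dahl S samples, and Ptpro at +0.00014 without congenic sample 3. Markers of the thick limb, distal tubule and collecting duct were higher in 8 of 11 (median +0.10, 12669 to 13599 against 11314 to 12911), with Kcnj1 at +0.26 (SE 0.15) and Calb1 at +0.17 (SE 0.14). Without Dahl S sample 1 these were +0.16 and +0.26, and Calb1 was at +0.091 without Dahl S sample 3.

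Endothelial, smooth muscle and pericyte markers were higher in 5 of 11 and lower in 6 (median -0.02, summed signal 1798 to 2134 in congenic and 2096 to 2378 in Dahl S samples), with Acta2 at -0.67 (SE 0.27) and Tagln at -0.38 (SE 0.17). The list went both ways: Myh11, Kdr and Emcn, chosen after their values were seen, were at +0.50, +0.46 and +0.36. Acta2 was at -0.43 without congenic sample 2. Leukocyte and blood markers were lower in 9 of 10 (median -0.43, 11093 to 18887 in congenic and 14115 to 49195 in Dahl S samples), with Coro1a at -0.81 (SE 0.33) and Cd68 at -0.43 (SE 0.19). The list also holds the red-cell genes Hba-a1 (-0.67), Hbb (-0.43) and Alas2 (-0.42), so its sums do not measure leukocytes alone. Coro1a was at -0.53 without congenic sample 3. Ptprc, the defining leukocyte surface gene, was below the filter level. None of these markers passed the adjusted threshold, and the part of cell composition in the peptidase values was not tested.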

How the data were processed

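Total kidney RNA from 3 congenic and 3 Dahl S samples had been hybridised to each of 3 array types, per the labels. Groups and sample numbers come from the sample titles, and equal numbers were joined over the types. The deposited values are linear intensity values, 1 per probe set. The authors' deposited intensity values have a mean after trimming 2% at each end of 150.1 to 150.2 on every array, so no scaling was added; the software that summarised probes: not given in the sources used here. Values were raised to the 10th percentile of their array type (3.1, 6.8 and 4.8) before log2. Probe sets with a mean log2 below the 40th percentile of their type (signals of 21.2, 39.3 and 37.7) were not tested. The strain contrast was fitted in R 4.3.3 by limma 3.58.1 (eBayes with an intensity trend, 1 fit per type), with Benjamini-Hochberg adjustment over all 15721 tested probe sets. The fit was run on simulated data with larger differences than those of the peptidases and no effect of sample number. That run thus does not cover differences of the size measured for the peptidases. The number of arrays limits the precision. A gene was represented by its tested probe set with the highest mean. Symbols come from the platform annotation (18178 probe sets with 1, 391 with several, 7633 with none); 18122 matched RefSeq gene IDs. The members and lists were chosen with earlier results of these data known. Named genes were all members, the 2 with the smallest p in each other list and the 5 of closest pattern. Figures used matplotlib 3.10.9 in Python 3.11.15.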

Additional observations from a re-analysis of the deposited data

How the results depend on the processing

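With 3 samples a strain, the 95% interval of each tested peptidase probe set included 0. Among the other named genes, Slc4a4, Dpep2, Coro1a and Acta2 had an unadjusted limma p of 0.0034, 0.0305, 0.0361 and 0.0385. None of them passed the adjustment over all tested probe sets. Under all scaling, floor, filter, variance, adjustment and sample-number alternatives, and with each sample left out, limma called 0 probe sets (259 to 819 had an unadjusted p under 0.05) and 0 peptidase probe sets (0 to 2 unadjusted). With the sample number as a replicate block the count of calls was also 0 (819 unadjusted, against 391 without it) and the peptidase median +0.22. Same-numbered samples deviated together with r of 0.45, 0.077 and 0.18 for numbers 1, 2 and 3. The main fit was planned without the sample number, and the block was planned as an alternative. With a term for the samples numbered 1 alone, 704 probe sets had an unadjusted limma p under 0.05 and 0 were called. The main fit has no such term, so the spread that goes with sample number stays in its error and can widen its intervals. The peptidase median was +0.19 to +0.25 under the alternatives that kept all samples or left out both numbered 1, and +0.11 to +0.21 with 1 sample left out, with 5 to 7 genes higher. The 20 other named genes kept their direction in each of the 335 values run, although Ptpro came to +0.00014 and Podxl to +0.31 with 1 sample left out. Those values all used 1 fixed probe set per gene. Other tested probe sets went the other way for Ptpro (-0.34), Calb1 (-0.04) and, in part, Kcnj1 (+0.15 and -0.08). Those of Slc4a4, Pck1, Acta2, Tagln and Coro1a kept the direction. Dpep2, Ace, Gata4, Ppara, Coro1a and the peptidase probe set L07315_at of Dpep1 were not tested under the filter at the 60th percentile. Leaving out 1 sample turned the sign of Mep1b (-0.065 to +0.19) and Dpep1 (-0.0091 to +0.20), and of these other probe sets: M15944_at of Mme (-0.060 to +0.33), AF039890mRNA_s_at (-0.19 to +1.03) and AF039891_s_at (-0.18 to +0.33) of Anpep, S73583_at of Enpep (-0.65 to +0.54), J04591_at of Dpp4 (-0.041 to +0.31) and M33822_at of Ggt1 (-0.059 to +0.40). Without both samples numbered 1, AF039891_s_at was at -0.084 and S73583_at at -0.14. The cause was not tested.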
